A study of Mus musculus with 30 samples.

Results

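Messenger RNA levels of 10 genes of the oxygen-sensing pathway were followed in mouse embryonic stem cells (ESCs) of the E14tg2a line. They are the transcription factor genes Hif1a and Epas1 and 8 genes known as their targets, namely Vegfa, Bnip3, Egln1, Egln3, Ankrd37, Car9, P4ha1 and P4ha2. The genes were chosen by name and found by gene identifier among the 52630 genes of a time-course count table and the 55487 genes of a passage count table, and all 10 passed the filter on low counts in both. In the time course, ESCs were kept in Serum/LIF, or were moved for 3, 9 or 24 h to Enhanced Metabolic Media (EMM), which is the same serum and LIF medium with galactose in place of glucose and pyruvate. The Serum/LIF group is labelled 0 h, while its treatment label speaks of Serum/LIF for 24 h. There was no Serum/LIF group at 3 or 9 h. An effect of EMM and one of the time since the medium was changed therefore cannot be told apart at those times. In the passage experiment, ESCs were kept for 10 passages (P10) or 20 passages (P20) in Serum/LIF, in EMM, or in 2i/LIF, a medium with LIF and inhibitors of the kinases MEK and GSK3. Each of the 10 groups held 3 libraries, described in the study's methods as independent experiments, and all were of 1 cell line. No culture is labelled as hypoxic, and oxygen was not a variable of the labels.

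Cells sense oxygen through the alpha subunits of hypoxia-inducible factor (HIF), of which Hif1a and Epas1 encode the best known. When oxygen is present, the prolyl hydroxylases encoded by the Egln genes modify the alpha subunit, the Vhl ubiquitin ligase complex binds it, and it is destroyed. Without that mark it pairs with Arnt and binds a short DNA element near genes for glucose transport, glycolysis, blood vessel growth, mitophagy and collagen modification. The factor is therefore set mainly by protein stability, which RNA counts do not measure. ESCs in culture are strongly glycolytic, and several of the glycolytic genes are HIF targets.

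The DNA upstream of the target genes was examined for the core of that element. The sequences are from RefSeq (GRCm38.p6) and cover the 250 bases before the start of a RefSeq entry of each gene. That start can lie inside the gene model whose positions are given in this text. The windows of Hif1a (chr12:73907617-73907866), Ankrd37 (chr8:45999851-46000100) and P4ha2 (chr11:54100674-54100923) lay inside it. Those of Egln1 and Car9 overlapped it in part. An entry was found for 9 of the 10 genes, all but Epas1. Vegfa had 2 entries, and only the one nearest the start of its gene model was used. The letters ACGTG, searched on both strands, occurred in 8 of the 9 windows, against 16.6% of the windows of 27025 genes. The related letters GCGTG occurred in 5 of the 9, against 28.2%. The palindrome CACGTG, which holds ACGTG on both strands and is also the E-box of other factors, was found in the windows of Hif1a and Bnip3 and in 6.05% of all windows. The members were picked as HIF targets and their windows held between 50.8% and 86.0% G and C, so the share is a description only. Shown here are the windows of 4 of the 6 genes that were higher at 9 h than at 3 h of EMM, those that lie outside the gene model apart from a few bases of Bnip3. They are written 5′ to 3′ along the strand of the gene, with ACGTG and GCGTG matches on either strand in capitals. Bnip3 is read from chr7:138909507-138909756 (minus strand), P4ha1 from chr10:59323046-59323295 (plus strand), Egln3 from chr12:54203875-54204124 (minus strand) and Vegfa from chr17:46032378-46032627 (minus strand).
Bnip3: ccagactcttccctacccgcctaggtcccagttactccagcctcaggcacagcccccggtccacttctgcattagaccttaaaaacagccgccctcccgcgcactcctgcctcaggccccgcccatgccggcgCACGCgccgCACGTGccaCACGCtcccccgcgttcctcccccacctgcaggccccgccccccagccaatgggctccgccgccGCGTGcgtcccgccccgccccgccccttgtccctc
P4ha1: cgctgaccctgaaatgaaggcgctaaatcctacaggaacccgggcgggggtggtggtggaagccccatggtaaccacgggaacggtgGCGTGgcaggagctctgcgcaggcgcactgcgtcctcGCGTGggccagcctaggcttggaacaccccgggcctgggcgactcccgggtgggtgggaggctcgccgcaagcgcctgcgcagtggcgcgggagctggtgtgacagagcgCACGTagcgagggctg
Egln3: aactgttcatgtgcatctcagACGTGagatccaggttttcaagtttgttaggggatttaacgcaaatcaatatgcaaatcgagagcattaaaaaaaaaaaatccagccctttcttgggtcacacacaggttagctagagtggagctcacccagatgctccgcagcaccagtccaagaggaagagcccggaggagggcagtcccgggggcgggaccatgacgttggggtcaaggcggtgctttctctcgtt
Vegfa: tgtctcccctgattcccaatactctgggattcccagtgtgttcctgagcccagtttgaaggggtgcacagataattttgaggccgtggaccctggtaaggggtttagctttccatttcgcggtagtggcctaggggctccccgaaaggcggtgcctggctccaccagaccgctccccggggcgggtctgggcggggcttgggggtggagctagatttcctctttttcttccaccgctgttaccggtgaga
The Bnip3 window held 1 palindrome, which counts as 2 ACGTG matches, and 3 GCGTG matches. The P4ha1 window held 1 and 2, the Egln3 window 1 and 0, and the Vegfa window none of either. Egln1 and P4ha2, the other two genes that were higher at 9 h, each held 1 ACGTG match, with 1 and 2 GCGTG matches. A match is a string of letters and not a measured binding site, and a window without one says nothing about the factor.

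The libraries held 24074132 to 35301962 counts in the time course and 6944904 to 27912928 in the passage experiment. The 6 ESC markers (Pou5f1, Sox2, Nanog, Esrrb, Zfp42 and Klf4) summed to 104894 to 114073 normalized counts in every time-course library and to 42356 to 65637 in every passage library. Markers of feeder fibroblasts (Col1a1, Col1a2, Col3a1, Thy1 and Postn) differed between media in the passage experiment. The study's methods describe ESC culture on gelatinized flasks and name no feeder layer. Their summed level was 2225 to 2658 normalized counts in P10 Serum/LIF and 3572 to 7104 in P20 Serum/LIF, against 286 to 364 and 142 to 190 in EMM and 45.0 to 60.3 and 77.5 to 90.9 in 2i/LIF. They passed the test as lower in EMM for 4 of 5 markers at both passages, with 1 higher in P10 EMM, and in 2i/LIF for 5 of 5, so every passage comparison with Serum/LIF below carries this difference. Trophectoderm markers (Cdx2, Elf5, Gata3 and Krt7) summed to 306 to 321 in P10 and 169 to 338 in P20 Serum/LIF, to 11.5 to 22.5 and 26.8 to 35.8 in EMM, and to 234 to 315 and 11.7 to 29.7 in 2i/LIF. Of 3 tested, 2 were lower in EMM than in Serum/LIF at both passages and 3 in P20 2i/LIF, while in P10 2i/LIF 1 was higher and 1 lower. Mesoderm markers (T, Mesp1 and Eomes) summed to 290 to 914 and 413 to 422 in Serum/LIF, to 117 to 178 and 151 to 160 in EMM, and to 722 to 1006 and 236 to 341 in 2i/LIF, and 1 of 2 tested was lower than in Serum/LIF in EMM at both passages and in P20 2i/LIF. In EMM against Serum/LIF the ESC markers Pou5f1 (0.61), Sox2 (0.50) and Esrrb (0.82) and the primitive endoderm marker Sox7 (2.73) were higher at P10 and Dab2 (-2.37) lower, and at P20 Sox17 (1.61) was higher and Nanog (-1.11), Zfp42 (-0.55) and Klf4 (-0.73) lower. The part of these marker differences in the results was not tested. In bulk RNA, fewer cells of a type and less RNA per cell cannot be told apart. A normalized count is the count scaled to the mean effective library of its experiment, so levels are not comparable between the experiments.

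The genes differed in level per length of transcript. In the Serum/LIF libraries of the time course, in CPM per kilobase of exon (CPM being the count scaled to library size), Hif1a stood at 27.9 ± 0.926 (SD, n = 3), above Bnip3 at 16.8 ± 1.54. Egln1 (12.4 ± 1.01), Epas1 (11.8 ± 0.500) and P4ha1 (11.7 ± 0.595) lay within their spread of each other. Vegfa stood at 9.63 ± 0.346, Egln3 at 8.57 ± 0.790, P4ha2 at 1.93 ± 0.0779 and Ankrd37 at 1.82 ± 0.238, the last pair within their spread. Car9 was near the floor, at 0.279 ± 0.0591, with 8 to 29 counts in a time-course library and 3 to 22 in a passage library. The passage experiment had another order already in Serum/LIF. The labels name featureCounts for the time course and Salmon for the passages, and the part of these tools in the order was not tested. In P20 Serum/LIF Bnip3 stood highest at 96.2 ± 3.89, above Hif1a at 19.7 ± 1.40, and Egln3 (16.2 ± 2.58), P4ha1 (16.2 ± 0.959) and Egln1 (14.4 ± 0.841) followed, the last within the spread of Egln3. In P20 EMM Bnip3 stood at 199 ± 5.66, Egln3 at 32.5 ± 3.32 and Egln1 at 30.8 ± 2.38, within their spread of each other, P4ha1 at 25.8 ± 1.36 and Hif1a at 22.1 ± 0.686.

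Over the first 3 h in EMM, Hif1a RNA rose while 5 of the 8 target genes fell. Hif1a (ENSMUSG00000021109, chr12:73901375-73947530, mm10) encodes the broadly expressed alpha subunit. Its normalized counts were 4688, 4862 and 5010 in Serum/LIF, 6955, 6878 and 7373 at 3 h, 6744, 6693 and 6481 at 9 h, and 6271, 6504 and 6098 at 24 h. Every EMM library lay above every Serum/LIF library. The rise was 0.54 ± 0.04 (SE) on the log2 scale at 3 h (adjusted p = 5.50e-08), 0.45 ± 0.04 at 9 h (adjusted p = 3.09e-07) and 0.37 ± 0.04 at 24 h (adjusted p = 1.54e-06). The difference between 3 and 9 h (-0.09 ± 0.04, adjusted p = 0.0861) and between 9 and 24 h (-0.08 ± 0.04, adjusted p = 0.181) did not pass.

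Epas1 (ENSMUSG00000024140, chr17:86753700-86833410) encodes the second alpha subunit, best known from endothelium. It moved less and in another order. Its counts were 1980, 1846 and 1996 in Serum/LIF and 1940, 1934 and 2012 at 3 h, which overlapped. At 9 h they were 1621, 1730 and 1573, below all Serum/LIF libraries (-0.24 ± 0.05, adjusted p = 0.000396). At 24 h they were 2245, 2193 and 2173, above them (0.18 ± 0.04, adjusted p = 0.0026). The dip and return were also seen between successive times, at -0.26 ± 0.04 from 3 to 9 h (adjusted p = 0.00034) and 0.42 ± 0.04 from 9 to 24 h (adjusted p = 1.23e-05). Emcn, one of the 4 endothelial markers, had at most 3 counts in any time-course library, and the 4 together summed to 340 to 420 normalized counts in Serum/LIF, 508 to 522 at 3 h, 444 to 469 at 9 h and 402 to 463 at 24 h. Of 3 tested, 1, Kdr, was higher than in Serum/LIF at 3 h (log2 2.12), 9 h (1.87) and 24 h (2.09), and its part was not tested.

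**Figure D1:**
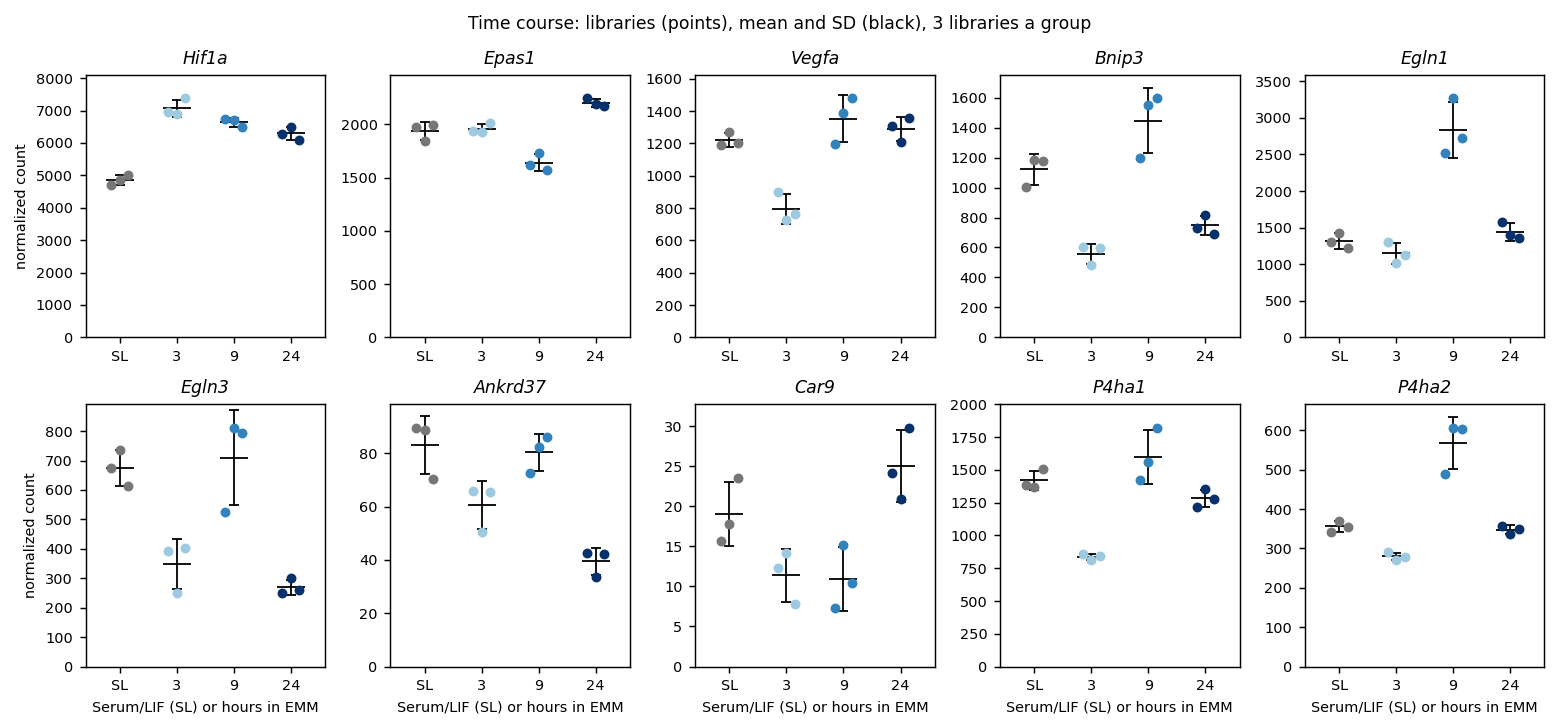
Normalized counts of the 10 genes (y axis, linear, from 0) in Serum/LIF (SL) and after 3, 9 and 24 h in EMM (x axis); points are libraries, black bars the mean and SD of 3 libraries. Hif1a is higher in every EMM library, while Vegfa, Bnip3, Egln3, P4ha1 and P4ha2 are low at 3 h and higher at 9 h.

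Of the 10 genes, 1 rose and 5 fell at 3 h against Serum/LIF, where 16.3% of 16049 tested genes rose and 18.2% fell. Bnip3 (ENSMUSG00000078566, chr7:138890836-138909519), which marks mitochondria for mitophagy, fell most. Its normalized counts were 1004, 1186 and 1179 in Serum/LIF and 601, 482 and 595 at 3 h. The groups did not overlap, and the log2 change was -1.01 ± 0.11 (adjusted p = 4.00e-06). Egln3 (ENSMUSG00000035105, chr12:54178981-54203860), a hydroxylase that is itself induced by HIF, went from 675, 736 and 612 to 391, 250 and 402, a change of -0.96 ± 0.17 (adjusted p = 0.000306). P4ha1 (ENSMUSG00000019916, chr10:59323296-59373304), a catalytic subunit of the collagen prolyl hydroxylase, went from 1385, 1373 and 1504 to 859, 811 and 842 (-0.76 ± 0.08, adjusted p = 1.28e-06). All 3 genes were lower in every 3 h library than in any Serum/LIF library.

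Vegfa (ENSMUSG00000023951, chr17:46016993-46032369), the growth factor of blood vessels, followed with 1187, 1269 and 1203 normalized counts in Serum/LIF and 900, 725 and 763 at 3 h (-0.62 ± 0.08, adjusted p = 2.69e-05). P4ha2 (ENSMUSG00000018906, chr11:54100095-54131665), the other collagen hydroxylase subunit, fell least, from 343, 371 and 354 to 290, 271 and 279 (-0.35 ± 0.08, adjusted p = 0.00332). The groups of both genes did not overlap. The P4ha2 call was lost without Serum/LIF replicate 2 (-0.31), without EMM 3 h replicate 2 (-0.32) and without EMM 3 h replicate 3 (-0.34). The other 4 genes, Epas1, Egln1, Ankrd37 and Car9, did not pass, with log2 changes from -0.74 to 0.02. Markers had moved by 3 h too, with Gata3 of trophectoderm (1.30), Sox7 of primitive endoderm (0.89), Kdr of endothelium (2.12) and the ESC marker Esrrb (0.59) higher, and the ESC markers Sox2 (-0.59), Nanog (-0.33) and Zfp42 (-0.27) lower. The trophectoderm markers summed to 260 to 289 normalized counts at 3 h against 172 to 209 in Serum/LIF. Their part in the results was not tested.

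All 5 targets that had fallen by 3 h were higher again at 9 h, and Egln1 rose with them. From 3 to 9 h, 6 genes rose and 1 fell, against 13.7% and 12.9% of all tested genes. This comparison shares its 3 h libraries with the one before, so a low value there enters both. Bnip3 reached 1196, 1550 and 1595 normalized counts at 9 h (1.37 ± 0.11 against 3 h, adjusted p = 3.93e-07). Egln1 (ENSMUSG00000031987, chr8:124908587-124949324), the main HIF hydroxylase, went from 1300, 1012 and 1129 at 3 h to 2518, 3266 and 2730 at 9 h (1.31 ± 0.10, adjusted p = 2.30e-07). Every 9 h library lay above every 3 h library for both genes. Egln3 reached 525, 812 and 794 (1.03 ± 0.17, adjusted p = 0.000216). P4ha2 reached 490, 607 and 603 (1.02 ± 0.08, adjusted p = 3.11e-07). P4ha1 reached 1420, 1560 and 1823 (0.93 ± 0.08, adjusted p = 3.92e-07). For these 3 genes as well the 9 h and 3 h libraries did not overlap. Vegfa reached 1196, 1386 and 1478 and rose by 0.77 ± 0.08 (adjusted p = 5.73e-06).

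Set against Serum/LIF, 9 h of EMM left 3 genes higher and 1 lower, where 18.5% of tested genes rose and 19.7% fell. Egln1 stood above its 1307, 1432 and 1220 normalized counts in Serum/LIF by 1.10 ± 0.10 (adjusted p = 3.92e-07), and P4ha2 by 0.67 ± 0.08 (adjusted p = 6.04e-06). Hif1a was the third and Epas1 the gene that fell. Bnip3 stood at 0.36 ± 0.11 and just missed the threshold (adjusted p = 0.0108), and the other 5 genes had log2 differences from -0.80 to 0.17.

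By 24 h most targets had come down from their level at 9 h. From 9 to 24 h, 6 of the 10 genes fell and 2 rose, against 6.02% and 7.0% of all tested genes, and the 9 h libraries are shared with the comparison before. Egln3 fell to 251, 300 and 260 normalized counts (-1.39 ± 0.17, adjusted p = 5.65e-05). Ankrd37 (ENSMUSG00000050914, chr8:45996902-46005707), an ankyrin repeat protein gene known as a HIF target, went from 72.7, 82.5 and 86.0 to 42.5, 33.5 and 42.1 (-1.02 ± 0.16, adjusted p = 0.000323). Egln1 fell to 1576, 1393 and 1355 (-0.98 ± 0.10, adjusted p = 9.20e-06). No library of the earlier time overlapped with the later one in these 3 genes. Bnip3 fell to 730, 820 and 691 (-0.95 ± 0.11, adjusted p = 2.70e-05). P4ha2 fell to 358, 336 and 349 (-0.70 ± 0.08, adjusted p = 2.22e-05). The 24 h libraries of both genes were below all 9 h libraries. P4ha1 fell to 1221, 1353 and 1279 (-0.32 ± 0.07, adjusted p = 0.00639), a call lost without EMM 9 h replicate 2 (-0.34), EMM 9 h replicate 3 (-0.22), EMM 24 h replicate 1 (-0.28) or EMM 24 h replicate 3 (-0.32), and in a fit of only the groups compared (-0.32). Vegfa, at 1305, 1211 and 1358, did not pass the test against 9 h (-0.07 ± 0.08, adjusted p = 0.602). Car9 (ENSMUSG00000028463, chr4:43506966-43513729), a membrane carbonic anhydrase, rose with Epas1, from 7.27, 15.2 and 10.4 to 24.2, 20.9 and 29.8 (1.19 ± 0.30, adjusted p = 0.00944). These are 8 to 29 reads per library, and the Car9 call was lost without EMM 9 h replicate 1 (0.95), EMM 9 h replicate 3 (1.15), EMM 24 h replicate 1 (1.21), EMM 24 h replicate 2 (1.29) or EMM 24 h replicate 3 (1.04), and in DESeq2 and a fit of only the groups compared (1.19 in both).

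After 24 h in EMM 2 genes stood above their Serum/LIF level and 3 below it, against 21.8% and 22.2% of all tested genes. Hif1a and Epas1 were the higher pair. Egln3 was lower (log2 -1.32 ± 0.18, adjusted p = 1.44e-05), Ankrd37, at 89.6, 88.8 and 70.5 normalized counts in Serum/LIF, was lower as well (-1.07 ± 0.16, adjusted p = 4.44e-05), and so was Bnip3 (-0.59 ± 0.11, adjusted p = 0.000354). In all 3 genes the groups did not overlap. The other 5 genes, Vegfa, Egln1, Car9, P4ha1 and P4ha2, had log2 differences from -0.15 to 0.39. At 24 h the 6 primitive endoderm markers (Gata6, Gata4, Sox17, Sox7, Pdgfra and Dab2) summed to 739 to 752 normalized counts against 408 to 443 in Serum/LIF, with 4 of 6 higher by the test, and the 5 fibroblast markers to 1251 to 1473 against 1799 to 1888, with 3 of 4 tested lower. The trophectoderm markers summed to 308 to 338 against 172 to 209, with Gata3 (2.05) and Krt7 (1.04) higher and Cdx2 (-1.05) lower, and the mesoderm marker T was lower (-0.70). At 9 h 3 of 6 primitive endoderm markers and 2 of 3 tested trophectoderm markers were higher than in Serum/LIF. From 3 to 9 h Sox2 (0.30), Nanog (0.22), Pdgfra (0.73) and T (0.27) rose and Pou5f1 (-0.16), Esrrb (-0.22) and Thy1 (-0.71) fell, and from 9 to 24 h Nanog (0.18), Sox7 (0.49), Dab2 (0.46) and Gata3 (0.72) rose and T (-0.79) and Col1a1 (-0.37) fell. Their part in the results was not tested. Shared exon bases limit Ankrd37, which overlaps Lrp2bp by 349 and Ufsp2 by 57 bases on the opposite strand, and Bnip3, which overlaps the antisense gene Gm45507 by 504. Hif1a shares 330 bases with the antisense gene Gm15283 and 148 with the same-strand gene Gm49321, and Car9 shares 214 with the antisense gene Gm12454. Strand use in the time-course counting is not given in the sources used here, so reads of such partners cannot be told apart.

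**Figure D2:**
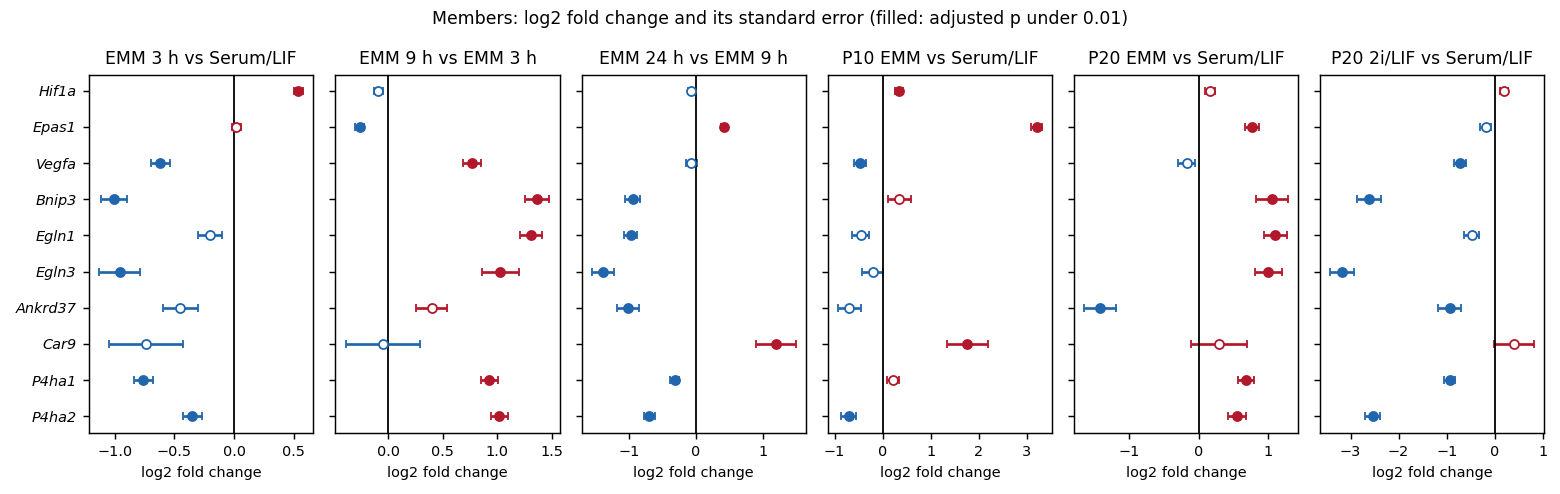
Log2 fold change (x axis of each panel, panels on their own scales) of the 10 genes with its standard error, for 6 comparisons; filled points passed at an adjusted p under 0.01. Most targets lie left of 0 at 3 h, right of 0 from 3 to 9 h and left of 0 again from 9 to 24 h.

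Other genes of the pathway, from lists of its parts, were counted in the same comparisons. At 3 h, of 29 other HIF targets 6 rose and 12 fell, and of 19 glycolytic targets 3 rose and 4 fell, beside 16.3% and 18.2% of all tested genes. The median log2 changes were -0.22 and -0.09, beside -0.01 over all tested genes. Bhlhe40, a transcriptional repressor, rose most among the other targets (1.62) and Car12, another carbonic anhydrase, fell most (-1.18). Among glycolytic genes Pfkfb3, which makes the activator of phosphofructokinase, rose most (1.40) and the lactate exporter gene Slc16a3 fell most (-0.63). From 3 to 9 h, where 13.7% of all tested genes rose and 12.9% fell, 14 other targets rose and 3 fell (median 0.37), and 9 glycolytic targets rose and none fell (median 0.20), though Ldha was lower at an unadjusted p under 0.05, with Loxl2 (1.55), a collagen crosslinker, and Slc16a3 (0.96) rising most. From 9 to 24 h, where 7.0% rose and 6.02% fell, 15 of the 29 other targets fell and none rose (median -0.30), and 11 of the 19 glycolytic targets fell and none rose (median -0.22), led by Adm (-2.03), which encodes a vasodilator peptide, and Slc16a3 (-0.76). Adm was near the floor, at a mean of 27.9 normalized counts at 9 h and 6.77 at 24 h. Car12 was low as well, at 76.2 in Serum/LIF, 33.4 at 3 h, 38.7 at 9 h and 21.8 at 24 h. At an unadjusted p under 0.05 in edgeR 2 of the other targets (Edn1 and Cited2) and 1 glycolytic gene (Pfkfb4) were higher at 24 h than at 9 h, and DESeq2 called 0 genes in the directions given as none.

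At 9 h against Serum/LIF, where 18.5% of all tested genes rose and 19.7% fell, 13 other targets were higher and 5 lower (median 0.31), and 8 glycolytic targets higher and 2 lower (median 0.14). Bhlhe40 (1.62) and Pfkfb3 (1.67) rose most, and Car12 (-0.98) and the lactate dehydrogenase gene Ldha (-0.29) fell most. At 24 h the counts were 9 higher and 11 lower (median 0.09) and 5 higher and 7 lower (median -0.09), beside 21.8% and 22.2% of all tested genes, with the same genes at the ends, Bhlhe40 at 1.18, Pfkfb3 at 0.96, Car12 at -1.81 and Ldha at -0.73. Several glycolytic genes, Gapdh, Pgk1, Tpi1 and Ldha among them, have near-identical pseudogenes, which makes their counts less certain.

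Of the 12 genes of oxygen sensing itself, 4 rose and 5 fell at 3 h, beside 16.3% and 18.2% of all tested genes. At 9 h 3 rose and 2 fell (beside 18.5% and 19.7%) and at 24 h 2 rose and 2 fell (beside 21.8% and 22.2%), near or below those shares, and their log2 changes lay between -0.55 and 0.35 at all 3 times. Egln2, the third HIF hydroxylase gene, was the top rise at each time (0.35, 0.32 and 0.34). The top falls were Hif3a (-0.55), an alpha subunit that can oppose the others, at 3 h, Ubxn7 (-0.27), an adaptor of the ligase complex, at 9 h, and Cul2 (-0.33), its scaffold, at 24 h. Of 8 partner genes of collagen modification 7 were tested. Of these 1 rose and 1 fell at 3 h, 4 rose and 1 fell at 9 h, and 1 rose and 1 fell at 24 h. Crtap, a partner in collagen prolyl hydroxylation, rose most each time (0.27, 0.40 and 0.50). Leprel2 (-0.61), Serpinh1 (-0.18) and P4hb (-0.13), the partner of P4ha1 and P4ha2, fell most in turn among the genes that passed; Leprel2 stood at -0.28 and -0.27 at 9 and 24 h without passing.

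**Figure D3:**
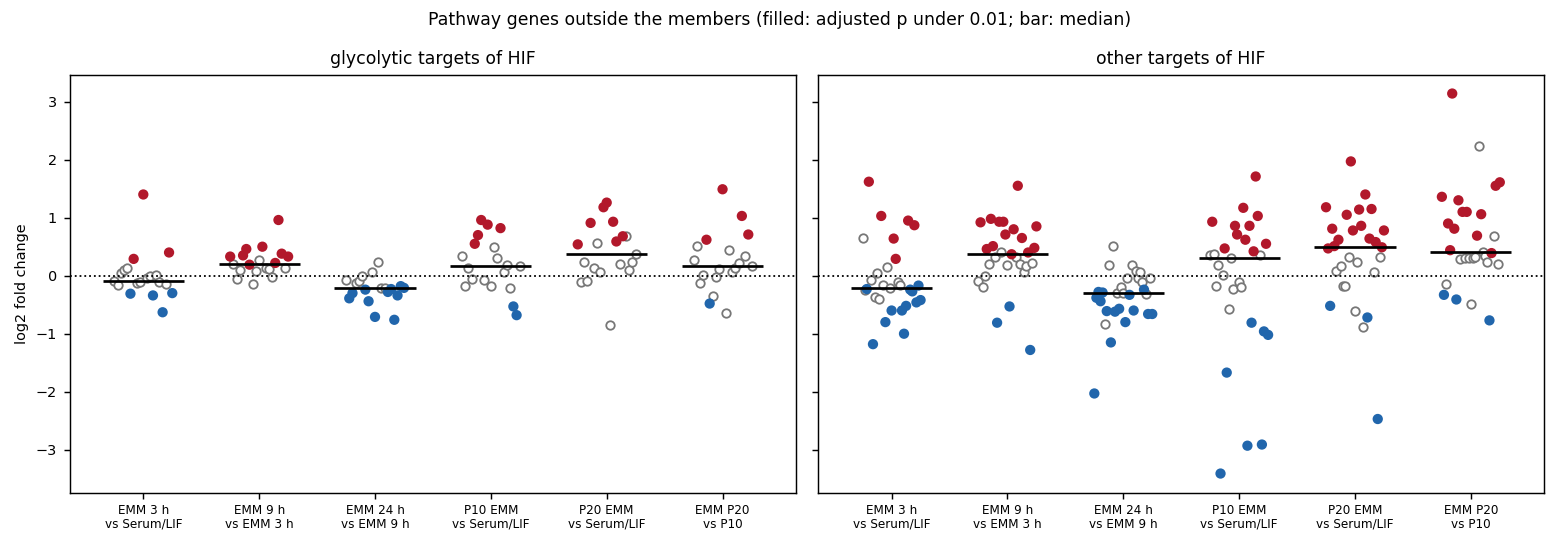
Log2 fold change (y axis) of 19 glycolytic targets and 29 other targets of HIF in 6 comparisons (x axis); each point is a gene, filled red or blue where it rose or fell at an adjusted p under 0.01, and the bar is the median. The median of both lists is below 0 at 3 h, above 0 from 3 to 9 h and below 0 from 9 to 24 h.

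After 10 passages the factor that stood out in EMM was Epas1. Its normalized counts were 225, 221 and 283 in Serum/LIF, 413, 457 and 364 in 2i/LIF, and 2344, 2291 and 2039 in EMM. All EMM libraries lay far above the rest, 9.18-fold over Serum/LIF (log2 3.20 ± 0.11, adjusted p = 3.89e-13) and 5.44-fold over 2i/LIF (2.44 ± 0.11, adjusted p = 2.62e-12). Hif1a moved much less, with 2077, 2104 and 2125 in Serum/LIF, 2094, 2177 and 2277 in 2i/LIF, and 2719, 2735 and 2520 in EMM. The EMM libraries did not overlap the others, at 0.34 ± 0.08 over Serum/LIF (adjusted p = 0.00106) and 0.28 ± 0.08 over 2i/LIF (adjusted p = 0.00358). Both calls were lost with library totals alone (0.24 and 0.23) and with no filter (0.27 and 0.28). The latter call was also lost without P10 2i/LIF replicate 1 (0.26) or 2 (0.28) and without P10 EMM replicate 1 (0.27) or 2 (0.27), and in a fit of only the groups compared (0.29). Endothelial markers summed to 251 to 293 normalized counts in P10 EMM, beside 230 to 277 in Serum/LIF and 163 to 316 in 2i/LIF, with Emcn at no more than 3 counts. Of 2 tested, 1, Kdr, was higher in P10 EMM than in Serum/LIF (log2 2.01 ± 0.36) and 2i/LIF (3.94 ± 0.44), and its part in the Epas1 result was not tested.

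Of the 8 targets 1 was higher in P10 EMM than in Serum/LIF, 2 were lower and 5 did not pass. With both factors, 3 of the 10 genes stood above Serum/LIF and 2 below it, near the background of 18.7% of 16054 tested genes that rose and 18.7% that fell. P4ha2 fell, from 314, 389 and 301 normalized counts to 215, 182 and 218 (-0.71 ± 0.15, adjusted p = 0.000551). Vegfa fell from 461, 603 and 596 to 424, 344 and 426 (-0.47 ± 0.13, adjusted p = 0.00503). In both the EMM libraries lay below all Serum/LIF libraries. The Vegfa call was lost without P10 EMM replicate 2 (-0.38), P10 Serum/LIF replicate 2 (-0.41) or P10 Serum/LIF replicate 3 (-0.41). Car9 rose from 2.89, 4.96 and 8.10 to 17.7, 21.8 and 13.7 (1.76 ± 0.43, adjusted p = 0.00233), on 3 to 22 reads, and lost its call without P10 EMM replicate 2 (1.61), P10 Serum/LIF replicate 1 (1.47) or P10 Serum/LIF replicate 2 (1.72), and with no filter (1.69). Without P10 Serum/LIF replicate 2 the count of genes past the test was 3 in place of 5. The 5 genes that did not pass, Bnip3, Egln1, Egln3, Ankrd37 and P4ha1, had log2 differences from -0.69 to 0.35.

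In P20 EMM 5 of the 8 targets were higher than in Serum/LIF, 1 was lower and 2 did not pass. With Epas1, 6 of the 10 genes rose and 1 fell, against 13.6% and 12.5% of all tested genes. Epas1 stood at 760, 770 and 721 normalized counts in EMM and 417, 474 and 424 in Serum/LIF (0.77 ± 0.10, adjusted p = 1.48e-05). Bnip3 was at 6915, 6899 and 7253 against 3500, 3457 and 3244 (1.05 ± 0.23, adjusted p = 0.00163). Both hydroxylase genes were higher. Egln1 was at 1873, 1609 and 1709 against 855, 803 and 761 (1.10 ± 0.16, adjusted p = 3.23e-05), and Egln3 at 1391, 1197 and 1465 against 722, 744 and 548 (1.00 ± 0.20, adjusted p = 0.000636). The groups of these 4 genes did not overlap. P4ha1 was at 1648, 1576 and 1750 against 984, 1024 and 1105 (0.68 ± 0.11, adjusted p = 0.000151). P4ha2 was at 596, 628 and 654 against 388, 437 and 455 (0.55 ± 0.13, adjusted p = 0.00299), a call lost without P20 EMM replicate 2 (0.55) or 3 (0.52) and without P20 Serum/LIF replicate 1 (0.48) or 2 (0.57), and with library totals alone (0.46). Ankrd37 went the other way, with 46.5, 42.5 and 46.4 in EMM against 123, 109 and 129 in Serum/LIF (-1.41 ± 0.23, adjusted p = 0.000125). Its EMM libraries lay below all of those in Serum/LIF. Hif1a, Vegfa and Car9 did not pass, at log2 differences from -0.17 to 0.29.

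The effect of EMM against Serum/LIF was tested for a difference between the passages. Of the 10 genes, 3 had a more positive effect at P20 and 1 a more negative one, against 8.28% and 6.43% of all tested genes. The difference was 1.56 ± 0.23 for Egln1 (adjusted p = 7.36e-05), 1.26 ± 0.20 for P4ha2 (adjusted p = 0.000129), 1.21 ± 0.29 for Egln3 (adjusted p = 0.00479) and -2.43 ± 0.15 for Epas1 (adjusted p = 3.00e-09). The Egln3 call was lost without P10 EMM replicate 2 (1.17) or 3 (1.10), P10 Serum/LIF replicate 2 (1.13) or 3 (1.12), P20 EMM replicate 1 (1.19) or 3 (1.15), or P20 Serum/LIF replicate 3 (1.09). The other 6 genes had differences from -1.47 to 0.70 that did not pass. In the same test all 6 ESC markers had a more negative effect of EMM at P20 (median -0.72). Their sums were 58520 to 65637 normalized counts in P10 EMM, 42356 to 47123 in P10 Serum/LIF, 44382 to 45377 in P20 EMM and 50659 to 54589 in P20 Serum/LIF. Of the other markers, Krt7 (3.87), T (3.62) and Dab2 (2.14) passed with a more positive effect and Sox7 (-2.31), Kdr (-2.25) and Thy1 (-1.31) with a more negative one. The part of these markers in the results was not tested.

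Within EMM, 6 genes were higher at P20 than at P10 and 2 lower, where 13.3% of tested genes rose and 11.9% fell. Egln3 rose from 477, 382 and 341 normalized counts (1.74 ± 0.21, adjusted p = 5.66e-06), P4ha2 by 1.61 ± 0.14 (adjusted p = 1.88e-07) and Egln1 from 638, 514 and 632 (1.54 ± 0.16, adjusted p = 1.56e-06). Vegfa rose to 817, 722 and 759 (0.94 ± 0.13, adjusted p = 1.80e-05). Bnip3 rose from 4012, 3911 and 3766 (0.85 ± 0.23, adjusted p = 0.00765), a call lost when any 1 of the 6 EMM libraries was left out (0.87, 0.85 and 0.81 without P10 EMM replicates 1, 2 and 3, and 0.86, 0.86 and 0.83 without P20 EMM replicates 1, 2 and 3) and in DESeq2 (0.85). P4ha1 rose from 956, 876 and 978 (0.82 ± 0.12, adjusted p = 3.09e-05). Epas1 fell by 1.57 on the log2 scale (-1.57 ± 0.10, adjusted p = 4.54e-09) and Hif1a, at 2093, 2037 and 1967 in P20 EMM, fell by 0.39 (-0.39 ± 0.07, adjusted p = 0.00057). The P10 and P20 libraries of all 8 genes did not overlap. Markers of other cells moved between the same libraries. The endothelial marker Kdr was lower at P20 (-1.96), as were 3 of 6 ESC markers (median -0.39), while 2 of 6 primitive endoderm markers, Sox17 (1.87) and Dab2 (2.38), were higher, and so were Krt7 (3.29), T (2.67), Col1a1 (1.85) and Col3a1 (2.70), with Thy1 lower (-1.40). Their part in the results was not tested.

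Within Serum/LIF, 2 genes were higher at P20 than at P10 and none lower, where 3.16% of tested genes rose and 2.85% fell. In edgeR 1 gene, Hif1a, was lower at an unadjusted p under 0.05, and DESeq2 called 0. Epas1 rose by 0.86 ± 0.11 (adjusted p = 6.71e-05). Vegfa, at 846, 889 and 845 normalized counts at P20, rose by 0.64 ± 0.12 (adjusted p = 0.00207), a call lost without P10 Serum/LIF replicate 1 (0.52) or P20 Serum/LIF replicate 2 (0.61). Within 2i/LIF, 2 genes rose and 1 fell, against 13.1% and 15.2%. Vegfa rose from 237, 269 and 248 to 554, 593 and 421 (1.05 ± 0.13, adjusted p = 6.98e-06) and Egln1 from 375, 260 and 239 to 710, 597 and 444 (1.00 ± 0.18, adjusted p = 0.000195). P4ha1 fell from 935, 805 and 804 to 634, 593 and 413 (-0.64 ± 0.12, adjusted p = 0.000367). The 2 passages did not overlap in these 3 genes. In a fit of only the groups compared the Egln1 (1.02) and P4ha1 (-0.62) calls were lost. Between the same 2i/LIF libraries the markers Kdr (2.74), Col1a1 (2.66), Thy1 (1.76), Dab2 (1.39), Zfp42 (0.69) and Nanog (0.52) rose and Cdx2 (-4.28), T (-2.84), Sox17 (-2.62) and Sox2 (-0.65) fell, and in Serum/LIF Sox7 (2.32), Col1a1 (0.99), Nanog (0.72) and Esrrb (0.43) rose. Their part in the results was not tested. The 833 tested genes of chromosome 8, which holds Egln1 and Ankrd37, had a median log2 difference of 0.32 between the passages in 2i/LIF, and with it subtracted the Egln1 difference was 0.68.

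**Figure D4:**
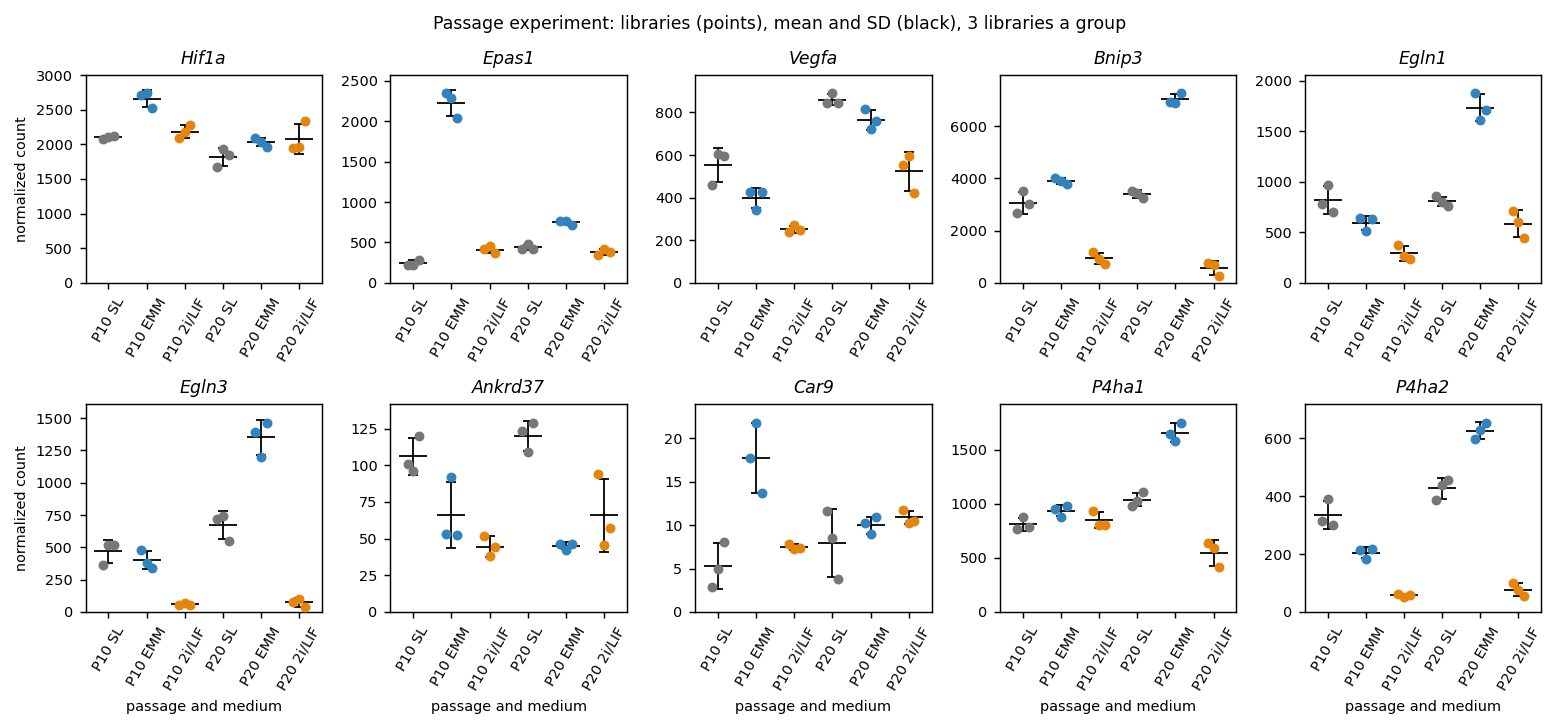
Normalized counts of the 10 genes (y axis, linear, from 0) in Serum/LIF (SL), EMM and 2i/LIF after 10 and 20 passages (x axis); points are libraries, black bars the mean and SD of 3 libraries. Epas1 is highest in P10 EMM, Bnip3, Egln1, Egln3, P4ha1 and P4ha2 are highest in P20 EMM, and Bnip3, Egln3 and P4ha2 are lowest in 2i/LIF.

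The 2i/LIF libraries held the lowest levels of most targets. At P10, 6 genes were lower in 2i/LIF than in Serum/LIF and 1 higher, where 25.6% of tested genes fell and 26.4% rose. Egln3 stood at 53.4, 72.6 and 56.2 normalized counts in 2i/LIF against 365, 522 and 517 in Serum/LIF, 7.74-fold lower (log2 -2.95 ± 0.26, adjusted p = 1.60e-08). P4ha2 stood at 61.2, 50.8 and 59.5 (-2.54 ± 0.17, adjusted p = 3.17e-10). Bnip3 stood at 1160, 924 and 724 against 2669, 3504 and 3028 (-1.72 ± 0.24, adjusted p = 7.25e-06). None of these groups overlapped. Egln1 was lower (-1.50 ± 0.17, adjusted p = 5.85e-07), so were Ankrd37 (-1.25 ± 0.25, adjusted p = 0.000256) and Vegfa (-1.14 ± 0.13, adjusted p = 6.08e-07), while Epas1 was higher by 0.76 ± 0.11 (adjusted p = 1.25e-05). Hif1a, Car9 and P4ha1 did not pass, at 0.06 to 0.51. Of 6 primitive endoderm markers, 2 were higher in 2i/LIF than in Serum/LIF and 3 lower at P10, and 3 were lower at P20 (medians -1.50 and -1.26). At P10 the ESC markers Klf4 (0.84), Nanog (0.71) and Esrrb (0.62) were higher, and Zfp42 (-0.39) and the endothelial marker Kdr (-1.93) lower. At P20 Nanog (0.51) was higher and Sox2 (-0.73) lower. The part of these markers was not tested.

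At P20, 6 genes were lower in 2i/LIF than in Serum/LIF and none higher, against 23.2% and 21.0% of tested genes. At an unadjusted p under 0.05 in edgeR 1 gene, Hif1a, was higher, and DESeq2 called 0. Egln3 stood at 79.9, 103 and 38.3 (-3.17 ± 0.25, adjusted p = 4.73e-09). Bnip3 stood at 764, 683 and 252, with replicate 3 well below the other two (-2.62 ± 0.25, adjusted p = 9.12e-08). P4ha2 stood at 98.7, 76.8 and 53.6 (-2.54 ± 0.16, adjusted p = 2.90e-10). All of these lay below every Serum/LIF library. P4ha1 was lower (-0.94 ± 0.12, adjusted p = 2.82e-06) and so was Vegfa (-0.72 ± 0.12, adjusted p = 7.75e-05). Ankrd37 stood at 94.0, 45.8 and 57.5 (-0.94 ± 0.24, adjusted p = 0.00262), a call lost without P20 2i/LIF replicate 2 (-0.72) or 3 (-0.88) or P20 Serum/LIF replicate 3 (-0.89), and in a fit of only the groups compared (-0.96). The chromosome 8 median was 0.45 in this comparison, and with it subtracted Ankrd37 stood at -1.39. The other 4 genes had log2 differences from -0.48 to 0.40. The lowest was Egln1 (adjusted p = 0.0184), which lies on chromosome 8 too, and subtracting the median would lower it further.

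EMM against 2i/LIF gave 7 higher genes and none lower at each passage, and these comparisons share their EMM and 2i/LIF libraries with those above. None was lower at an unadjusted p under 0.05 in edgeR either (0 of 10), and DESeq2 called 0. At P10 22.9% of tested genes rose and 22.2% fell, and at P20 25.7% rose and 22.9% fell. Egln3 differed by 2.75 ± 0.26 at P10 (adjusted p = 6.50e-08) and by 4.18 ± 0.25 at P20 (adjusted p = 8.41e-11), which is 6.71-fold and 18.1-fold. Bnip3 differed by 2.07 ± 0.25 (adjusted p = 1.19e-06) and 3.66 ± 0.26 (adjusted p = 1.12e-09). P4ha2 differed by 1.84 ± 0.17 (adjusted p = 5.47e-08) and 3.10 ± 0.16 (adjusted p = 1.29e-11). Egln1 differed by 1.05 ± 0.18 (adjusted p = 5.98e-05) and 1.58 ± 0.16 (adjusted p = 1.63e-07), where the P20 chromosome 8 median was -0.29 and the difference with it subtracted 1.88. Vegfa differed by 0.66 ± 0.13 (adjusted p = 0.000393) and 0.55 ± 0.12 (adjusted p = 0.00081). The primitive endoderm markers summed to 224 to 345 normalized counts in P20 EMM and 77.5 to 136 in P20 2i/LIF, with 5 of 6 higher in EMM. At P20 Gata3 (3.57), Col3a1 (2.33), Thy1 (1.72) and Sox2 (0.79) were higher in EMM as well, and T (-2.22), Nanog (-1.63), Cdx2 (-1.48), Klf4 (-1.09) and Zfp42 (-0.62) lower. At P10 the primitive endoderm markers summed to 109 to 125 in EMM and 91.5 to 103 in 2i/LIF, with Sox7 (6.01) higher and Sox17 (-2.03) and Pdgfra (-1.57) lower. Of the other lists, Thy1 (4.88), Kdr (3.94) and 3 ESC markers were higher in P10 EMM, and T (-7.74), Cdx2 (-5.77), Col1a2 (-3.15) and 2 ESC markers lower. The part of these markers was not tested. Epas1 at P20 differed by 0.96 ± 0.11 (adjusted p = 3.49e-07) and P4ha1 at P20 by 1.61 ± 0.12 (adjusted p = 1.84e-09).

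Pathway genes outside the members were counted in the media comparisons too. In P10 EMM against Serum/LIF, 11 of 29 other targets rose and 7 fell (median 0.30) and 5 of 19 glycolytic targets rose and 2 fell (median 0.17), with Ndrg1 (1.71), a stress-response gene, and the hexokinase gene Hk2 (0.96) rising most and Car12 (-3.41) and the glucose transporter gene Slc2a3 (-0.68) falling most. Over all tested genes 18.7% rose and 18.7% fell. Car12 was low, at a mean of 85.6 normalized counts in P10 Serum/LIF and 7.33 in P10 EMM. In P20 EMM, where 13.6% of all tested genes rose and 12.5% fell, 16 other targets rose and 3 fell (median 0.49) and 7 glycolytic targets rose and none fell (median 0.37), with 1, Pfkfb4, lower at an unadjusted p under 0.05 and 0 lower in DESeq2. Gbe1 (1.97), the glycogen branching enzyme gene, and Pfkfb3 (1.26) rose most. Over all tested genes the medians were 0.01 and 0.00. Oxygen-sensing genes passed in 2 and 3 of 12 cases, with Egln2 (0.69) the top rise at P10 and Arnt2 (0.73) at P20, and Cul2 (-0.37) the top fall at P20. Collagen partners passed in 3 and 2 of 7, with Crtap rising most (1.01 and 0.46) and the collagen chaperone gene Serpinh1 falling most (-2.21 and -1.23). Against 2i/LIF, P10 EMM had 14 of 29 other targets higher and 5 lower (median 0.46) and 12 of 19 glycolytic targets higher and 2 lower (median 0.61), beside 22.9% and 22.2% of all tested genes. P20 EMM had 23 other targets higher and 3 lower (median 1.31) and 14 glycolytic targets higher and 2 lower (median 0.86), beside 25.7% and 22.9%.

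The members' likeness was described by Pearson's r of log2 CPM over the libraries of an experiment, which share libraries, media and depth. Over the 12 time-course libraries the most alike pairs were Egln1 with P4ha2 (r = 0.97), Vegfa with P4ha1 (r = 0.92) and Bnip3 with P4ha1 (r = 0.91). The least alike were Epas1 with Ankrd37 (r = -0.74), Egln3 (r = -0.72) and P4ha2 (r = -0.71). Over the 18 passage libraries Egln3 was most like P4ha2 (r = 0.98) and Bnip3 (r = 0.95), and Bnip3 was like P4ha2 (r = 0.91). Hif1a was least like Vegfa (r = -0.60), Egln1 (r = -0.35) and Ankrd37 (r = -0.34). The values are a description of libraries grouped by medium and time.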

How the data were processed

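RNA-seq libraries of E14tg2a ESCs were used: 12 of a time course and 18 of a passage experiment, with 3 libraries per group. The time-course values deposited by the authors were raw counts per gene in whole numbers; the labels name STAR, featureCounts and DESeq2 and the build mm10, whereas the methods name HTSeq. The methods also describe counting in exons and introns, and which of these the table holds is not given in the sources used here. For the passages the authors deposited expected counts, which are estimated and not normalized; the labels name STAR and Salmon. Of these values 9.982% were not whole, and they were rounded. Genes were named and placed with GENCODE M21.

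Each experiment was fitted with all its groups in 1 model by edgeR 4.0.16 (R 4.3.3), with TMM scaling, filterByExpr, the quasi-likelihood test and Benjamini-Hochberg adjustment over all tested genes (16049 and 16054). A gene passed at an adjusted p under 0.01. DESeq2 1.42.0 was an alternative. The fit was tested on simulated data. The members and lists were chosen with earlier results of these data known. Log2 fold changes are printed for members past the test, other members by range or where a statement needs them, and for each list the largest rise and fall in EMM against Serum/LIF; those between successive times were named after their values were seen. 1 such fall is not reported here. Of the members' calls, those that leaving out 1 library ended are given beside the call. Total counts of 6944904 to 35301962 per library set the precision. Alternatives were other scalings, filters, thresholds, the replicate number as a block, and leaving out each library. No column lacked a sample.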

Additional observations from a re-analysis of the deposited data

Results flagged for a closer look

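The effect of EMM against Serum/LIF differed between P10 and P20 for 4 of the 10 genes, by the test of the difference itself in edgeR, with 3 effects more positive and 1 more negative at P20 beside 8.28% and 6.43% of all tested genes. The difference in log2 effect, P20 minus P10, was -2.43 for Epas1, which was higher in EMM at both passages and less so at P20. It was 1.56 for Egln1, which was higher in EMM only at P20 by the test, and 1.21 for Egln3 likewise, a call lost in 7 of the fits without 1 library (1.09 to 1.19). It was 1.26 for P4ha2, which was lower in EMM at P10 and higher at P20. The groups of 3 libraries were too small for a test of outlying libraries.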

How the results depend on the processing

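Of 86 results of single genes past the test, none reversed. Each result was set against each alternative that applied to it, which gave 660 values apart from leaving out a library. Of these 641 were the same, 16 lost the call and 3 moved. Same meant the same direction and side of the threshold. Subtracting a chromosome median gives no p, so there same (27) or moved (3) was judged by the shift against the spread of libraries. Of 540 values from leaving out 1 library, 496 kept the call and 44 lost it. These losses came from 14 results. Where a log2 change of more than 1 in either direction was required as well, the genes past the test numbered 1 at 3 h, 1 at 9 h and 2 at 24 h against Serum/LIF, 4 from 3 to 9 h, 3 from 9 to 24 h, 2 in P10 EMM and 4 in P20 EMM against Serum/LIF, 3 in P20 2i/LIF against Serum/LIF, 0 in Serum/LIF between passages and 4 in EMM between passages. Fitted with only the groups compared, 2i/LIF between passages gave 1 gene, Vegfa, in place of 3. Leaving out 1 library gave 3 to 5 genes in P10 EMM against Serum/LIF and 1 to 2 in Serum/LIF between passages. Replicate numbers did not pair the samples: deviations of same-numbered libraries correlated at a median of 0.01 (18 pairs, 5 over 0.1) and 0.00 (45 pairs, 3 over 0.1). A replicate block gave 7 genes past the test from 9 to 24 h, where Car9 (1.19) lost its call, as it did with the numbers of the sample descriptions (1.19); Bnip3 at 9 h against Serum/LIF (0.36, adjusted p = 0.00732) and Egln1 in P20 2i/LIF against Serum/LIF (-0.49, adjusted p = 0.00852) gained theirs under the block of title numbers, and no other call changed under either block. The cause was not tested. Depth limited Car9 most, at 3 to 29 counts.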
